A study of Mus musculus with 2 samples.

Results

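Neutrophils, taken by a gene rule, made up 102 of the 4198 cell barcodes kept from the aortic adventitia of mice given angiotensin II (AngII). Their share was 2.43% (95% interval 1.99 to 2.94). Of the 102, 70 (1.67%, 1.30 to 2.10) held few transcripts of macrophage, monocyte and MHC class II genes. The other 32 held more, and whether these are all neutrophils was not tested. A barcode was taken as a neutrophil when *S100a8* and *S100a9* together made up at least 1% of its unique molecular identifiers (UMIs, each standing for 1 captured transcript), at least 2 of *Csf3r*, *Cxcr2*, *Retnlg*, *G0s2*, *Hdc* and *Mmp9* had a UMI, and *C1qa*, *C1qb* and *C1qc* together had at most 2. Both libraries held live CD45+ cells, sorted from aortic adventitia at about 16 weeks of age. The mice were *Rank*-Cre *Rosa26*-eYFP, in which Cre switches on a yellow fluorescent protein (*Yfp*) in the descendants of early erythro-myeloid progenitors. The AngII library pooled 2 animals after 10 days at 1.8 µg/kg/min from an osmotic pump, and the steady-state library pooled 3 untreated animals. With 1 library per condition no difference could be tested across animals. All intervals are exact 95% intervals for counting error only.

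Neutrophils are short-lived granulocytes that leave the bone marrow with ready-made granules and enter inflamed tissue from the blood. Their granules form in order as the cell matures, first the primary (azurophil) granules with myeloperoxidase and elastase, then the secondary granules with lactoferrin, and last the gelatinase granules, so that mature cells keep the proteins of the early granules but no longer transcribe their genes. CXCR2 and the G-CSF receptor guide their release and recruitment. In the artery wall they are a source of interleukin 1, of chemokines that call in further neutrophils and monocytes, and of matrix-degrading proteases.

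Nuclear factor kappa B (NF-kB) is a transcription factor that turns on inflammatory genes, and genes of the interferon response are turned on through interferon-stimulated response elements (ISRE). Promoter sequences came from RefSeq (GRCm38.p6), and 4 short motifs were searched on both strands in the 250 bases before the start of 27025 genes. The NF-kB-type letters GGGANNTTC stood in 3.70% of all promoters and in 6 of the 17 cytokine and chemokine promoters with an entry (*Il6*, *Cxcl1*, *Cxcl2*, *Cxcl3*, *Cxcl10* and *Csf1*), but not in those of *Il1b*, *Ccl3* and *Tnf*. The ISRE-type letters GAAANNGAA stood in 8.18% of all promoters and in 7 of the 16 interferon-response promoters (*Ifit1*, *Ifit3*, *Ifit3b*, *Isg15*, *Rsad2*, *Slfn5* and *Gbp2*). The NF-kB-type letters were also in 3 of 16 interferon-response promoters and the ISRE-type letters in 4 of 17 cytokine and chemokine promoters. An AP-1-type motif, TGANTCA, stood in 7.82% of all promoters, in 7 of the 17 cytokine and chemokine promoters and in 6 of the 16 interferon-response promoters. A C/EBP-type motif, TTGCNNAA, stood in 10.8% of all promoters, in 1 of the 17, in 1 of the 16 and in 3 of 6 promoters of genes typical of circulating neutrophils (*Mmp8*, *Lcn2* and *Slpi*). The windows printed are those of 3 genes of this kind that were high in neutrophils (*Cxcl2*, *Cxcl3*, *Csf1*), of the NF-kB inhibitor *Nfkbia*, and of the interferon genes *Ifit1* and *Rsad2*. Each is given from 5′ to 3′ on its gene's own strand, with the matches in capitals. At *Cxcl2* and *Cxcl3* 2 matches on opposite strands overlap in 1 run of capitals, and *Nfkbia* holds 1 match on each strand. At *Csf1*, *Ifit1* (3 matches, some of them overlapping) and *Rsad2* the capitals are the reverse complement of the motif. A match describes letters and not binding.
Cxcl2, chr5:90903767-90903847, plus strand: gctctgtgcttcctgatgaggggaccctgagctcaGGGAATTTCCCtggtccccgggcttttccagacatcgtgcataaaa
Cxcl3, chr5:90785993-90786073, plus strand: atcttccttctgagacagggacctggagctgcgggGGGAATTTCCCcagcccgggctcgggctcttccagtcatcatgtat
Csf1, chr3:107760579-107760657, minus strand: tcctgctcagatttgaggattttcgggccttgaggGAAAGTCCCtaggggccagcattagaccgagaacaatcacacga
Nfkbia, chr12:55492648-55492795, minus strand: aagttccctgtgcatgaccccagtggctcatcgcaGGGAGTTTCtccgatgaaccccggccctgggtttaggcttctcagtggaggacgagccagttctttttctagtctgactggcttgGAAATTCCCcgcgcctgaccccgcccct
Ifit1, chr19:34640745-34640848, plus strand: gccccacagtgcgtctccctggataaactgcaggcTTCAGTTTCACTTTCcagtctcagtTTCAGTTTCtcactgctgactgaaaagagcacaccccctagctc
Rsad2, chr12:26456528-26456606, minus strand: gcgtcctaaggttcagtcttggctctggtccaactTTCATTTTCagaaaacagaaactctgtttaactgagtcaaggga

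The AngII library held 4419 deposited barcodes and the steady-state library 346, and the libraries shared 0 barcodes. Depth differed between cell types. The neutrophils held 391889 UMIs, with a median of 3314.5 per barcode (502 to 25835) and a median of 1183 detected genes. For comparison, 124 monocytes of the same library (*Ly6c2* with at least 2 other monocyte genes) had a median of 7394 UMIs, and 786 macrophages (C1q transcripts at least 1% of UMIs) had a median of 1350. All levels are the summed UMIs of a gene scaled to the summed UMIs of the cells as counts per 1e6 (CPM), which weights deep barcodes more than shallow ones. Since 3′ ends were counted, levels are compared between cells and not between genes.

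The genes used by the rule describe the choice and are not a finding. In the 102 neutrophils *S100a8* stood at 29401 and *S100a9* at 34030.0 CPM, against 179 and 112 CPM in monocytes, and the neutrophils held 63.2% of the *S100a8* and 65.6% of the *S100a9* UMIs of all kept barcodes. These genes encode the subunits of calprotectin, the main cytosolic protein of neutrophils. They lie side by side on chromosome 3 (GRCm38), *S100a8* at 90668978 to 90670035 on the plus strand and *S100a9* at 90692632 to 90695721 on the minus strand. *Csf3r*, the G-CSF receptor, had a UMI in 83 of the 102 neutrophils, *Cxcr2* in 82, the gelatinase gene *Mmp9* in 82, the histidine decarboxylase gene *Hdc* in 72, *G0s2* in 56 and *Retnlg*, which encodes a resistin-like protein, in 27. All 6 genes had a UMI in 13 neutrophils, 5 in 29, 4 in 15, 3 in 29 and exactly 2 in 16. The *S100a8* plus *S100a9* shares nearest the 1% limit were 1.01%, 1.02% and 1.03% inside it and 0.983%, 0.970% and 0.943% outside it, and 91 barcodes missed the rule by this share alone. Transcripts of *S100a8* were also spread thinly over the library, with a UMI in 21.8% of monocytes, 19.3% of macrophages, 19.7% of B cells and 14.6% of T cells (median depths 7394, 1350, 3010 and 1177 UMIs).

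Markers of other cell types divided the 102 neutrophils into a larger, cleaner set and a smaller one. The B cell markers *Cd79a*, *Cd79b* and *Ms4a1* and the 5 NK cell markers had 0 UMIs in every neutrophil, and the 5 T cell markers had 5 UMIs in 4 neutrophils. Macrophage, monocyte and MHC class II genes were not evenly spread. The share of UMIs from 9 such genes (*Lyz2*, *Apoe*, *Ccr2*, *Fn1*, *Plac8*, *Cd74*, *H2-Aa*, *H2-Ab1*, *H2-Eb1*) was at most 0.863% in 70 neutrophils and at least 1.15% in the other 32, with medians of 0.131% and 2.75%. It was 3.65% in monocytes and 5.29% in macrophages. The 7 macrophage markers (*Adgre1*, *Csf1r*, *Mrc1*, *Apoe*, *Cd68*, *Mertk*, *Ms4a7*) summed to 601 CPM in the 70, 6618 CPM in the 32 and 23160.4 CPM in macrophages. The 6 monocyte markers (*Ly6c2*, *Ccr2*, *F13a1*, *Plac8*, *Vcan*, *Fn1*) summed to 228 CPM in the 70 and 5052 CPM in the 32 neutrophils, against 7468 CPM in monocytes. Of these markers *Apoe*, *Ccr2*, *Plac8* and *Fn1* are among the 9 genes, so part of both differences follows from how the sets were formed.

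The 32 neutrophils with a high share were shallow for the most part, with a median of 1009 UMIs against 3933.5 in the 70, but 4 of them held more than 15000 UMIs (15561 to 25835), while none of the 70 exceeded 9066. These 4 barcodes carried 20.2% of all neutrophil UMIs. At least 4 of the 6 rule genes had a UMI in 48 of the 70 but in 9 of the 32, and *Cxcr2* or *Csf3r* had one in all 70 and in 25 of the 32. Whether the 32 hold RNA of 2 cells, free RNA or another cell state was not tested. The split was made after the data were seen. Values are therefore given for the 70, called low-share neutrophils, and wherever the 32, called high-share, changed the picture.

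**Figure D1:**
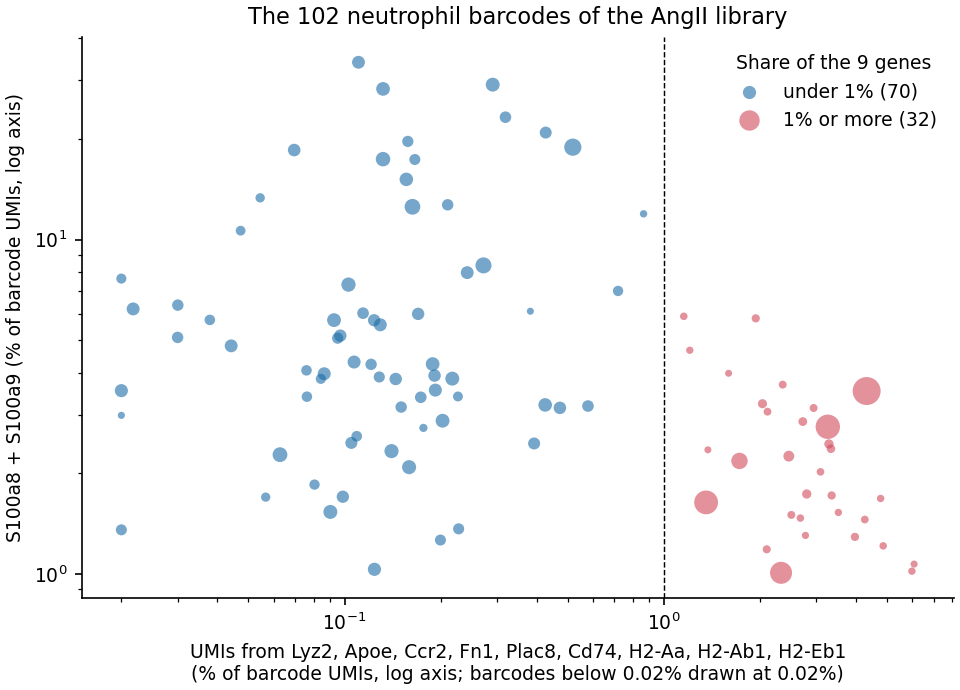
Each point is 1 of the 102 neutrophil barcodes of the AngII library, with the share of its UMIs from 9 macrophage, monocyte and MHC class II genes on the x axis and the share from S100a8 and S100a9 on the y axis (both in percent, log axes, point area rising with UMIs). The 70 blue points lie left of the dashed 1% line at up to 0.863%, and the 32 red points lie right of it from 1.15%, with 4 large points over 15000 UMIs.

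Genes of early granule formation were nearly silent. *Mpo* (myeloperoxidase), *Elane* (neutrophil elastase) and *Ctsg* (cathepsin G) had 0 UMIs in the 102 neutrophils, which allows a level of up to 7.66 CPM, and *Prtn3* (proteinase 3) and *Ms4a3* had 1 UMI each. Of the secondary granule genes, *Camp* (cathelicidin) had 0 UMIs and *Ngp* 1. *Ltf* (lactoferrin) had 8 UMIs in 7 neutrophils, all low-share. *Cd177* and *Ifitm6* had 27 and 38 UMIs in the 70 low-share neutrophils. In contrast, *Lcn2* (lipocalin 2, which withholds iron from bacteria) stood at 413 CPM in these 70, against 20.3 CPM in monocytes, a ratio of 20.3 (95% interval 12.7 to 34.1). Of the 8 cell cycle genes, *Mki67*, *Top2a* and *Birc5* had 0 UMIs in the neutrophils.

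Transcripts of late granule and secreted proteins were abundant. Among the 11 genes of this list with at least 20 UMIs, 7 were at least 2-fold higher in the 102 neutrophils than in monocytes and 0 were as much lower, with a median log2 ratio of 1.98. Over all 6743 genes 12.7% were that much higher and 17% that much lower, with a median of -0.06. In the 70 low-share neutrophils it was 7 of 10 genes and a median of 2.15, beside 14.3% of 6482 genes higher, 23.9% lower and a median of -0.12. *Wfdc21*, a small whey-acidic-protein family member, stood at 525 CPM in the low-share neutrophils, 26.0 CPM in the high-share ones and 2.90 CPM (3 UMIs) in monocytes. *Slpi* (secretory leukocyte protease inhibitor), which curbs elastase, was at 1307 CPM against 243 CPM in monocytes, a ratio of 5.38 (4.57 to 6.34). *Pglyrp1*, a bactericidal peptidoglycan-binding protein of the granules, was 17.1-fold higher (12.3 to 24.4), the stefin gene *Stfa2l1* 64.1-fold (37.5 to 119), though its reads may be shared with near-identical stefin copies, the skin-type protease gene *Asprv1* 38.1-fold (15.3 to 122) and *Padi4*, whose enzyme citrullinates histones in neutrophil extracellular traps, 31.8-fold (7.55 to 284). *Hp* (haptoglobin) differed less, at 1013 CPM against 594 CPM.

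Several of these transcripts had a UMI in some of the barcodes only. *Slpi* had a UMI in 39 of the 70 low-share neutrophils, *Lcn2* in 25, *Wfdc21* in 24 and *Stfa2l1* in 20, whereas *Pglyrp1* had one in 48. A single barcode held 26.5% of the *Slpi* and 32.8% of the *Stfa2l1* UMIs of the 102 neutrophils.

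Other S100 genes followed a different pattern from calprotectin. *S100a4*, which monocytes and many other migrating cells express, had 8 UMIs in 6 of the 70 low-share neutrophils (29.0 CPM), but stood at 1730.3 CPM in the 32 high-share ones, 2503 CPM in monocytes and 974 CPM in macrophages. The ratio of monocytes to low-share neutrophils was 86.4 (43.8 to 200). Since the 70 were set apart by few monocyte and macrophage transcripts, part of the ratios for genes high in those cells may follow from that choice. *S100a10*, the annexin A2 partner, was 37.7-fold lower (20.5 to 78.9) in low-share neutrophils than in monocytes. In contrast, *S100a11* was 2.42-fold higher (2.24 to 2.60) and *S100a6* lay close to monocytes at 1.13-fold (1.06 to 1.21). Over the list 1 of 6 genes was at least 2-fold higher and 4 at least 2-fold lower, beside 14.3% and 23.9% of all 6482 genes. The median log2 ratio of the 6 genes was -1.38, which became -0.66 over all 102 neutrophils. Thinned to 500 UMIs, 5 of these genes were left in the 102 and their median was 0.13.

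Receptors for chemotactic signals were high. Of 10 genes tested, 8 were at least 2-fold higher than in monocytes and 1, the C3a receptor gene *C3ar1*, was lower. Their median log2 ratio was 1.93 (1.66 over all 102). The shares over all 6482 genes were 14.3% higher and 23.9% lower. *Cxcr4*, which holds neutrophils in the bone marrow and marks aged cells in tissue, was at 945 CPM in low-share neutrophils and 141 CPM in monocytes, 6.69-fold higher (5.44 to 8.24), with a UMI in 58 of 70. *Ccrl2*, which binds chemerin without signalling, was 20.6-fold higher (15 to 29.0) and *Fpr1*, the receptor for bacterial formyl peptides, 8.41-fold (4.12 to 18.2). *Ccr1*, a receptor of *Ccl3*, was 3.48-fold higher (3.00 to 4.03). *C3ar1* had 4 UMIs in the 70 and was 12.6-fold lower (4.85 to 46.9).

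Adhesion and cytokine receptor genes differed little as groups. The median log2 ratio over monocytes was 0.25 for 10 adhesion genes, with 2 higher and 2 lower, and 0.03 for 15 cytokine receptor genes, with 2 higher and 1 lower. Over all 6482 genes 14.3% were at least 2-fold higher and 23.9% as much lower, so the counts of higher genes lay near the share over all genes. *Icam1* was 5.68-fold higher (3.98 to 8.16) and *Selplg*, the P-selectin ligand, 2.80-fold (2.31 to 3.39), while the integrin genes *Itgam* and *Itgb2*, which together form Mac-1, lay at 1.13 and 1.02 times the monocyte level. The higher cytokine receptor genes were *Il1r2* and *Il1rap*, whose products take part in binding interleukin 1. *Il1r2*, a decoy receptor, was at 1321 CPM against 71.6 CPM, 18.4-fold higher (14.3 to 24), and had a UMI in 62 of 70, and the accessory chain gene *Il1rap* was 8.10-fold higher (5.18 to 12.9).

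Cytokine and chemokine genes were mostly higher in neutrophils than in monocytes. Of 16 genes tested in low-share neutrophils, 10 were at least 2-fold higher than in monocytes and 4 at least 2-fold lower. Their median log2 ratio was 1.93. Over all 6482 genes 14.3% were that much higher and 23.9% that much lower, so the count of lower genes lay near that share. *Il1b* was at 14039 CPM in the 70, 6912 CPM in the 32, 2640.2 CPM in monocytes and 605 CPM in macrophages, 5.32-fold higher (5.06 to 5.59) than in monocytes and 23.2-fold higher (22.0 to 24.4) than in macrophages. Every one of the 70 had an *Il1b* UMI, from 2 to 265 with a median of 48.5. *Cxcl2*, a ligand of CXCR2 and so a signal to other neutrophils, was at 10952 CPM in the 70, 2474 CPM in the 32, 857 CPM in monocytes and 1035 CPM in macrophages. It was unevenly spread, from 0 to 370 UMIs with a median of 28, and 10 of the 70 had none.

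Genes of inflammatory chemokines and of further cytokines were also high. *Ccl3* was 19.9-fold higher (15.5 to 25.8) than in monocytes and *Ccl4* 17.3-fold (14.0 to 21.5), with a UMI in 34 and 23 of the 70. One barcode alone held 34.8% of the *Ccl4* UMIs of the 70. *Tnf* was 24.1-fold higher (14.6 to 42.1). *Csf1*, the growth factor of monocytes and macrophages, stood at 575 CPM in low-share neutrophils against 14.5 CPM in monocytes and 13.6 CPM in macrophages, 39.6-fold (23.3 to 72.5) and 42.2-fold (30.9 to 58.5) higher, with a UMI in 37 of 70. *Il1rn*, the antagonist of interleukin 1, was also higher, 6.38-fold (5.07 to 8.04). The lower genes were the monocyte chemoattractants *Ccl2*, with 4 UMIs in the 70 and 32.1-fold lower (12.5 to 118), and *Ccl7*, 12.4-fold lower (5.62 to 34.1), the chemokine gene *Ccl9*, 7.20-fold lower (4.87 to 11.1), and *Tgfb1*, at 76.0 CPM against 404 CPM.

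Among innate sensors 10 of 15 genes were at least 2-fold higher than in monocytes and 0 were as much lower. Their median log2 ratio was 1.63, and 14.3% and 23.9% of all 6482 genes were that much higher and lower. *Trem1*, which amplifies inflammatory signals of myeloid cells, was 9.18-fold higher (7.16 to 11.9), the inflammasome gene *Nlrp3* 5.66-fold (4.18 to 7.70), and *Clec4e*, a receptor for damaged cells and mycobacterial glycolipid, 3.66-fold (3.15 to 4.25). *Tlr2* was at 0.730 times the monocyte level. Fc receptor genes were 0 higher and 2 lower of 5, the lower ones being the high-affinity receptor gene *Fcgr1*, 14.0-fold (6.74 to 35.1), and the inhibitory *Fcgr2b*, 7.91-fold (4.89 to 13.7).

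Subunits of the phagocyte NADPH oxidase, which makes the respiratory burst, did not move together. The cytosolic subunit gene *Ncf1* was 4.09-fold higher (3.28 to 5.11) and the GTPase gene *Rac2* 2.71-fold (2.32 to 3.16), but the catalytic subunit gene *Cybb* had 8 UMIs in 5 of the 70 neutrophils. *Cybb* stood at 29.0 CPM in low-share neutrophils, 433 CPM in high-share ones and 783 CPM in monocytes, 27-fold lower (13.7 to 62.9) in the first than in the last. Part of this difference may follow from how the 70 were set apart. *Cyba*, its membrane partner, was at 0.736 times the monocyte level.

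Enzymes of eicosanoid synthesis were among the genes that set neutrophils apart from monocytes. *Ptgs2* (cyclooxygenase 2) was at 2038 CPM against 128 CPM, 15.9-fold higher (13.2 to 19.4), with a UMI in 51 of 70, and *Ptgs1* (cyclooxygenase 1) 29.9-fold higher (12.8 to 85.5). *Alox5* (5-lipoxygenase) and *Ltc4s* (leukotriene C4 synthase) were 16.8-fold (6.81 to 49.8) and 20.6-fold (6.99 to 82.1) higher. In macrophages *Ltc4s* was the higher one, at 157 CPM against 79.6 CPM. Of 7 eicosanoid genes 4 were at least 2-fold higher and 1, *Lta4h*, was at least 2-fold lower than in monocytes. The shares over all 6482 genes were 14.3% higher and 23.9% lower. The list's median log2 ratio was 3.98 in the 70 (7 genes tested) and 2.09 in the 102 neutrophils (8 genes tested).

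Genes of survival and of the immediate early response were also high. *Mcl1*, the survival factor that neutrophils depend on, was at 3366 CPM against 977 CPM in monocytes, 3.44-fold higher (3.15 to 3.77), with a UMI in 69 of 70. The *Bcl2a1* paralogues *Bcl2a1a*, *Bcl2a1b* and *Bcl2a1d*, which are nearly identical and whose reads may be split between them, were 7.56-fold, 3.80-fold and 3.88-fold higher. The apoptosis genes *Bax*, *Bak1* and *Casp8* were at least 2-fold lower, *Casp8* by 4.44-fold (2.35 to 9.43), and *Bcl2* had 0 UMIs. Of the 14 survival and death genes tested 8 were higher and 3 lower, with a median log2 ratio of 1.46. Among all 6482 genes 14.3% were at least 2-fold higher and 23.9% as much lower, so the count of lower genes lay near that share. Among 18 transcription factors and regulators 7 were higher and 2 lower, *Nfkbia* 6.03-fold (5.41 to 6.74) and *Egr1* 4.62-fold (4.10 to 5.21) higher. *Egr3*, which a separate ranking of ratios named, was at 264 CPM against 4.84 CPM in monocytes, 54.6-fold higher (22.4 to 173), but 5.31-fold higher (4.0 to 6.97) than in macrophages. *Cebpa*, a factor of early granulocyte differentiation, was at 18.1 CPM against 76.5 CPM.

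Glycolytic genes lay near the monocyte level, with 2 of 17 at least 2-fold higher, 0 lower and a median log2 ratio of -0.14. Over all genes 14.3% were that much higher and 23.9% that much lower. The higher ones were the glucose transporter genes *Slc2a3*, 17.8-fold (5.90 to 71.8), and *Slc2a1*, 2.70-fold. *Gapdh* was at 0.905 times the monocyte level (0.80 to 1.02).

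**Figure D2:**
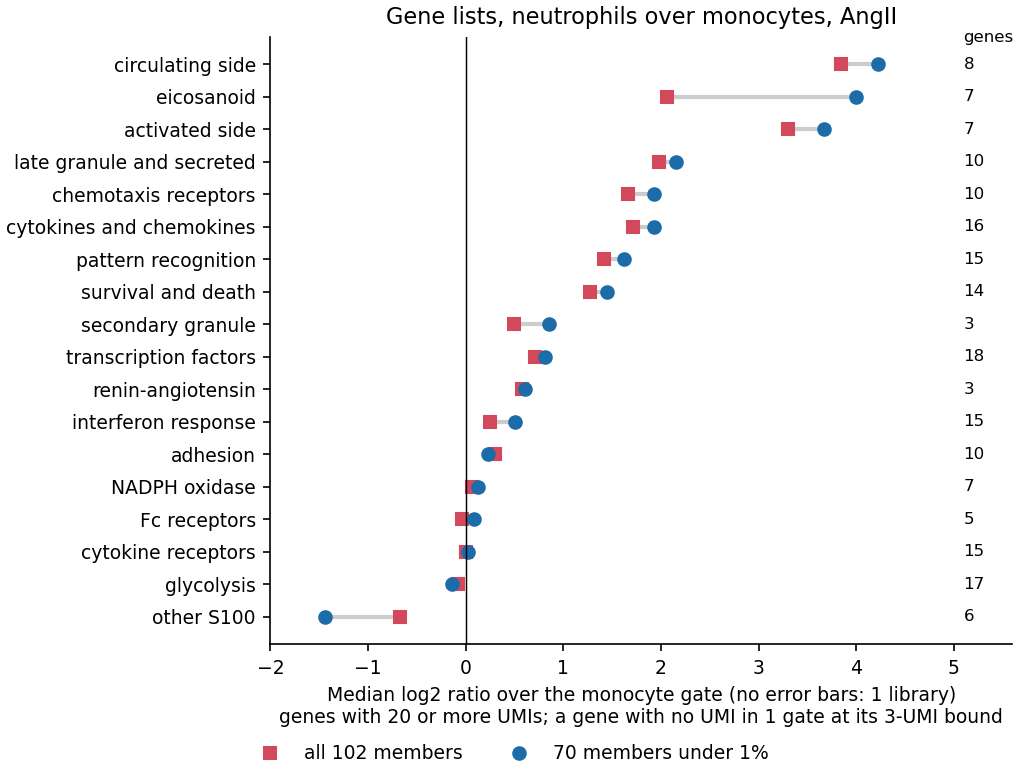
Points give the median log2 ratio of neutrophils over monocytes for 18 gene lists, in red for all 102 neutrophils and in blue for the 70 with under 1% of UMIs from the 9 macrophage, monocyte and MHC class II genes, with no error bars since there was 1 library. Numbers at the right count the genes tested in the 70, and a gene with no UMI in 1 of the cell sets stands at its 3-UMI bound. The lists of circulating and activated neutrophil genes lie at 3.84 and 3.30 in the 102, other S100 genes below 0, and the eicosanoid list moves the most between the colours.

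Ranked over all genes with at least 50 UMIs, the ratios to monocytes named further genes outside these lists. *Rdh12*, a retinol dehydrogenase gene on chromosome 12 (GRCm38, 79208914 to 79222665), had 56 UMIs in the 70 low-share neutrophils and was 105-fold higher (27.7 to 886). *Il1f9* (interleukin 36 gamma) was 68.6-fold higher (22.3 to 343), *Acod1*, whose enzyme makes itaconate, 64.6-fold (30.4 to 164) and *Hcar2*, the niacin receptor, 30.6-fold (16.3 to 63.5). At the other end stood *Siglech*, *Cd209a* and *Ccr9*, with 0 UMIs in the 102, at least 15.9-fold, 13.9-fold and 7.22-fold lower in the 70. Those are genes of dendritic cells, and 24 of the 124 monocytes had a *Siglech*, *Cd209a* or *Flt3* UMI.

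Against macrophages the neutrophils differed further. Of 9707 genes 13.2% were at least 2-fold higher in the 102 neutrophils and 23.5% as much lower, with a median log2 ratio of -0.15. In the 70 it was 14.8% and 30.6% of 9631 genes, with a median of -0.25. Late granule genes had a median log2 ratio of 5.66 with 11 of 12 higher, cytokines 2.57 with 12 of 21 higher and 7 lower, and pattern recognition genes 1.99 with 13 of 15 higher. The 8 cell cycle genes had 6 lower and 0 higher, with a median log2 ratio of -2.47. With genes that lack a UMI at their 3-UMI bound the median was -0.43, so the size of the difference is limited by depth. *Slpi* was 203-fold (136 to 315) and *Lcn2* 167-fold (87.4 to 357) higher than in macrophages, while *Ccl2* was 62.6-fold (24.4 to 230) lower.

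**Figure D3:**
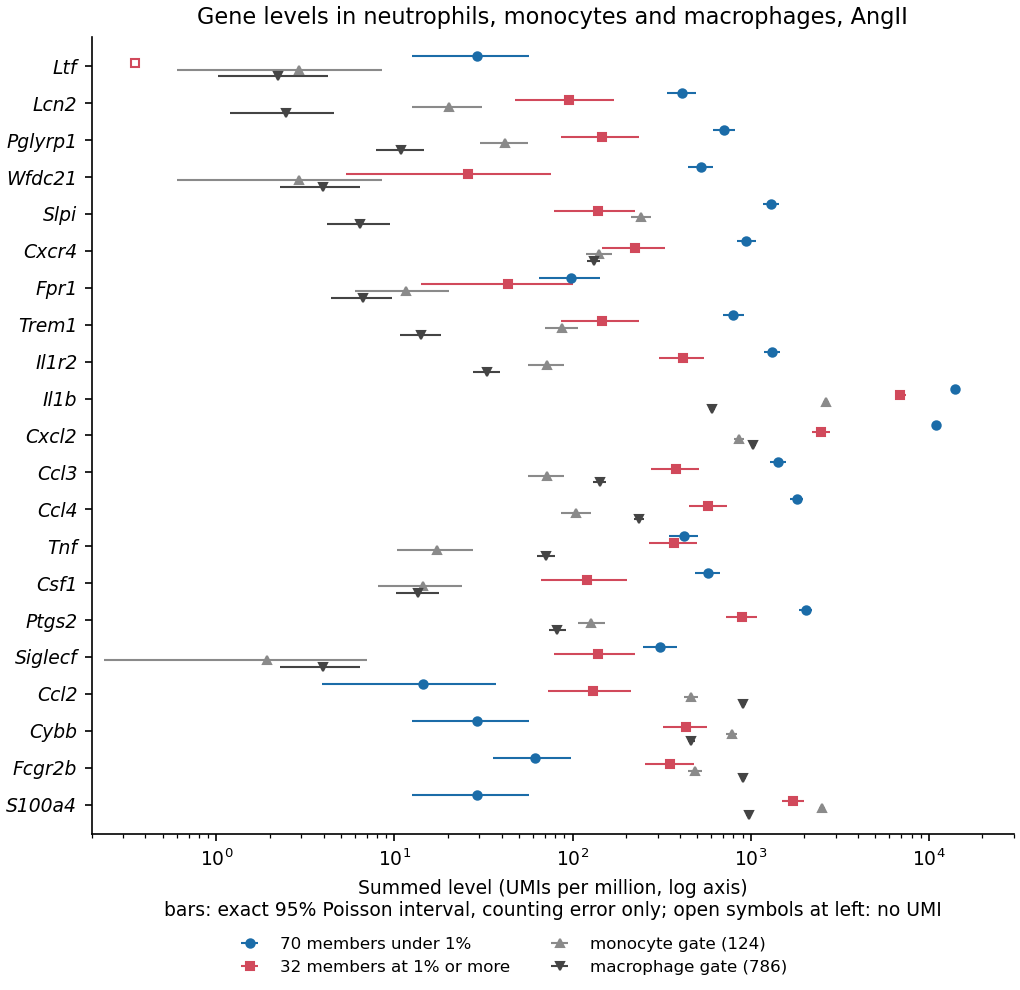
Symbols give the summed level of single genes in CPM (log axis) in the 70 low-share and 32 high-share neutrophils, 124 monocytes and 786 macrophages, with exact 95% Poisson intervals for counting error only and an open symbol at the left edge where there was no UMI. Il1b stands at 14039 in the 70 and 2640.2 in monocytes, whereas S100a4 and Cybb stand at 29.0 in the 70 and at 2503 and 783 in monocytes, with the 32 in between.

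*Siglecf*, a sialic acid receptor best known from eosinophils, was found in the neutrophils without the other eosinophil markers. It had 102 UMIs in 40 of the 102 neutrophils (39.2%, 29.7 to 49.4), and in 33 of the 70 low-share ones. It had a UMI in 2 of 124 monocytes (1.61%), 12 of 786 macrophages (1.53%) and 4 of 364 T cells (1.10%). Of 147 B cells 0 had one, which allows a share with a UMI of up to 2.04%. The study names an eosinophil cluster under AngII, but no eosinophil set was formed here for comparison. When every barcode was thinned to 500 UMIs, the share was 15.7% (9.24 to 24.2) in neutrophils and 0% in macrophages. The other eosinophil markers, *Ccr3*, *Il5ra*, *Epx* and *Prg2*, had 0 UMIs in all 102 neutrophils. The gene lies on chromosome 7 (GRCm38, 43351341 to 43359531, plus strand).

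The 33 low-share neutrophils with a *Siglecf* UMI were compared gene by gene with the 37 without one, as a description, since the sets were chosen from these data after they were seen. A barcode without a *Siglecf* UMI may still express the gene, and the median depth was 4544 UMIs in the 33 and 3333 UMIs in the 37. At 500 UMIs the neutrophils with *Siglecf* showed more genes per barcode, with a median of 362 (298 to 396) against 302 (213 to 401). The *S100a8* plus *S100a9* share reached 12.5% in the 33 and 33.9% in the 37, with medians of 4.25% and 5.1%. Of 2227 genes 17.7% were at least 2-fold higher with *Siglecf* and 7.14% as much lower, with a median log2 ratio of 0.27. With both sets thinned to 500 UMIs it was 14.5% higher and 11.4% lower of 255 genes, with a median of 0.03. The part of the calprotectin share in these counts was not tested.

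Late granule and secreted genes were lower in the neutrophils with *Siglecf*, 7 of 10 tested by at least 2-fold, with a median log2 ratio of -1.71 (-1.73 with genes that lack a UMI at their 3-UMI bound). *Retnlg*, a gene of the rule, is given as a description. It was at 141 CPM against 4948 CPM, with a UMI in 6 of 33 and 15 of 37 neutrophils and a median of 0 UMIs in both sets, and 2 barcodes without *Siglecf* held 198 and 175 of the 666 UMIs of their set. *Wfdc17* was 10.3-fold lower (7.49 to 14.6), *Wfdc21* 4.82-fold (3.13 to 7.67), the chemokine gene *Ccl6* 4.64-fold (3.52 to 6.18), *Lcn2* 3.39-fold (2.18 to 5.43) and *Stfa2l1* 2.89-fold (2.16 to 3.92). *Slpi* had a UMI in 12 of 33 and 27 of 37 neutrophils, but one barcode with *Siglecf* held 100 of the 126 *Slpi* UMIs of its set. *Acod1*, which makes itaconate, had 14 UMIs with and 107 without *Siglecf*, 8.04-fold lower (4.59 to 15.2). Of 9 interferon-response genes tested 8 were at least 2-fold lower, with a median log2 ratio of -2.29 (-2.40), and *Isg15*, with 7 UMIs against 73, was found in 5 of 33 and 8 of 37 neutrophils. A few barcodes carried this list. Of its 548 UMIs in the 37, 198 were in 1 barcode and 360 in 4, and of its 158 UMIs in the 33, 44 were in 1 barcode, which had the highest share of all 70. *Csf1* was at 0.436 times (0.305 to 0.614) and *Cxcl2* at 0.617 times (0.573 to 0.664) the level without *Siglecf*.

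Other genes were higher with *Siglecf*. *Rgs10*, a regulator of G protein signalling, had 54 UMIs in 17 of 33 neutrophils against 6 UMIs in 5 of 37, 8.55-fold higher (3.68 to 24.3). The oxidative phosphorylation genes *Ndufb8*, *Atp5a1* and *Uqcrb*, which are outside the lists, were 7.92-fold (3.39 to 22.6), 4.96-fold (2.40 to 11.5) and 4.66-fold (2.33 to 10.3) higher. No list of such genes was compared, and 17.7% of all 2227 genes were at least 2-fold higher. The transcription factor gene *Egr3* had 60 UMIs in 12 of 33 neutrophils and 13 UMIs in 6 of 37. *Ccl4* was 3.18-fold higher (2.58 to 3.95), with 174 of its 385 UMIs in 1 barcode, *Tnf* 2.72-fold (1.78 to 4.28) and the NADPH oxidase subunit gene *Ncf1* 2.23-fold (1.60 to 3.15). *Ccl3* was 1.74-fold higher (1.41 to 2.15), but its log2 ratio of 0.79 was 0.35 when both sets were thinned to 500 UMIs.

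Some genes differed by less than 1.3-fold between the sets. *Cxcr4* was at 1.10 times (0.856 to 1.41) the level without *Siglecf*, an interval that includes equal levels. *Il1b* was at 0.824 times (0.773 to 0.878), with a UMI in every neutrophil of both sets and medians of 53 and 45 UMIs. *Csf3r*, a gene of the rule, was at 1.04 times (0.840 to 1.28).

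**Figure D4:**
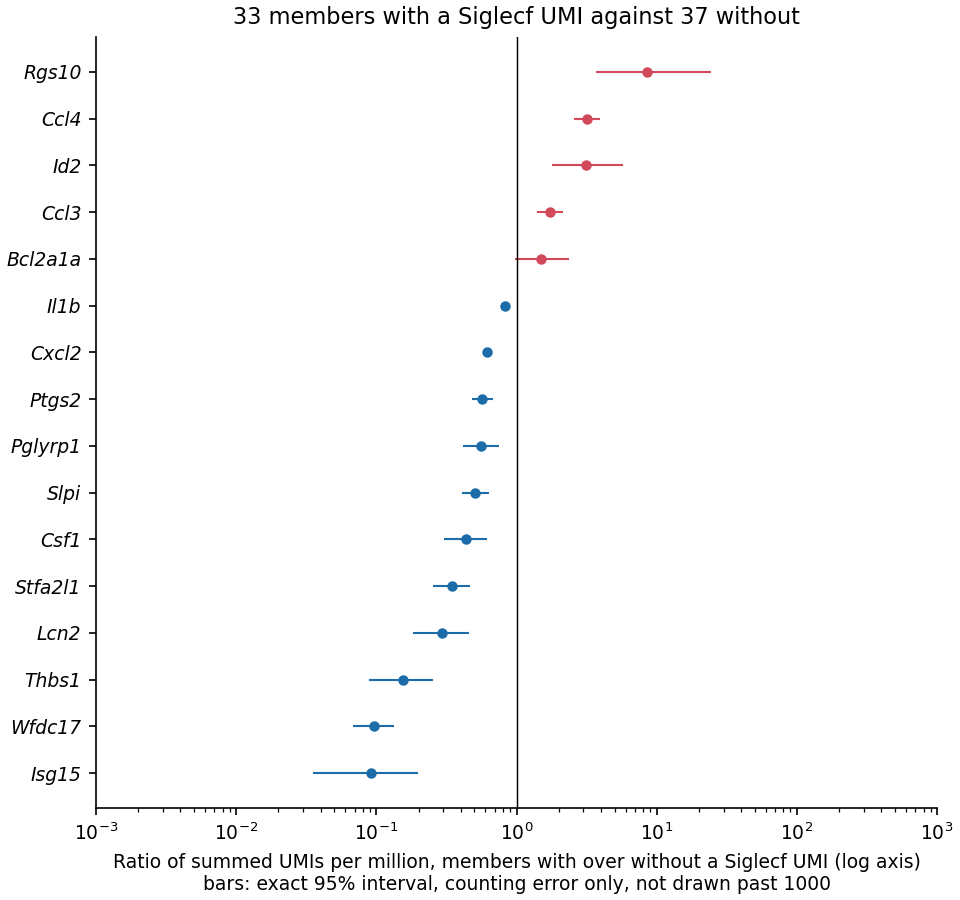
Points give, on a log axis, the ratio of summed levels (CPM) of single genes in the 33 neutrophils with a Siglecf UMI over the 37 without one, with exact 95% intervals for counting error only. Rgs10 lies farthest to the right at 8.55, Il1b near 1 at 0.824 and Isg15, with few UMIs, at the far left at 0.0911.

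A score was also formed per barcode, the UMIs of activation genes (*Icam1*, *Cxcl2*, *Ccl3*, *Ccl4*, *Il1a*, *Tnf*, *Cxcl3*, *Cd274*) minus those of 8 circulating-cell genes, among them *Mmp8*, *Lcn2*, *Wfdc21*, *Pglyrp1*, *Stfa2l1*, *Slpi* and *Asprv1*, after thinning to 500 UMIs. It ran from -9 to 42 in the 70 low-share neutrophils, with a median of 4. Near the limits of the lowest 23 and the highest 23, 17 and 14 barcodes lay within 1 of them. Abundant genes weigh more in such a difference of UMIs. In a draw of 500 UMIs per barcode *Cxcl2* had 358 UMIs in the 70 and *Ccl4* 53. Of 1469 genes outside the 2 lists of the score 10.5% were at least 2-fold higher and 5.85% as much lower in the highest 23 than in the lowest 23. *Dusp2*, a phosphatase induced by MAP kinase signals, was 17.0-fold higher (5.48 to 85.4), *Ccrl2* 4.25-fold (2.70 to 6.96), the platelet-activating factor receptor gene *Ptafr* 4.08-fold (2.12 to 8.45) and *Nfkbia* 2.99-fold (2.50 to 3.59). Higher in the lowest 23 were *Wfdc17*, 11.2-fold (7.0 to 18.9), *Ccl6*, 3.66-fold (2.72 to 5.0), and *Hp*, 3.48-fold (2.47 to 4.99). *Csf3r* and *Cxcr2* were at 0.774 (0.591 to 1.01) and 0.844 (0.660 to 1.08) times the level of the lowest 23 in the highest 23.

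The score ran from -9 to 53 over all 102 neutrophils, in a separate draw of 500 UMIs per barcode, so that a barcode can have another score in it. When the lowest and highest 34 were taken from all 102 neutrophils, 12 of the 32 high-share neutrophils fell in the lowest and 4 in the highest 34, and 9.02% of 2128 genes were at least 2-fold higher and 7.05% as much lower. The monocyte gene *Ccr2* then had 2 UMIs in the highest and 114 in the lowest 34. Without the 32 high-share neutrophils it had 1 UMI in the highest and 1 in the lowest 23, too few to give a ratio. *Ccr2* is among the 9 genes by which the high-share neutrophils were set apart, so its loss with them follows from that choice.

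Transcripts of the antiviral genes *Ifit1* and *Rsad2* lay in a few neutrophils. As a list the interferon-response genes went both ways, with 6 of 15 genes at least 2-fold higher and 5 lower than in monocytes in the 70, beside 14.3% and 23.9% of all genes, and a median log2 ratio of 0.52. Over all 102 the median was 0.27, and it was 1.5 over the 5 genes left at 500 UMIs, -0.18 over barcodes with at least 1000 UMIs and -0.56 over those with no C1q UMI. The summed share of the list had a median of 0.0993% per low-share neutrophil, and 5 of 70 exceeded 1%, at 7.72%, 5.99%, 1.18%, 1.11% and 1.09%. The 2 highest held 44 of 570 and 198 of 3304 UMIs. *Ifit1*, whose product blocks translation of viral RNA, had 30 UMIs in the 70, 25 of them in 1 neutrophil and 5 in another. *Rsad2* (viperin) had 43 UMIs in 6 neutrophils, 22 of them in that same barcode. *Slfn4*, a schlafen gene of myeloid cells, was more widely found, with 114 UMIs in 25 of 70 and 14.7-fold higher (9.71 to 22.9) than in monocytes. *Ifitm3*, which restricts viral entry, was 5.64-fold lower (4.91 to 6.51).

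The unevenness of single genes was compared at 500 UMIs by the ratio of variance to mean, which is 1 when UMIs fall at random. Its median over 67 genes was 1.64 in the 70 low-share neutrophils. *Ccl4* reached 10.9 and *Cxcl2* 9.79, followed by the ferritin gene *Fth1* at 5.51. *Cd74*, an MHC class II chaperone gene, was at 5.17 over all 102 and 1.28 in the 70 and *Lyz2* at 4.79 and 1.95. Both are among the 9 genes that set the 70 apart, so a lower ratio in the 70 follows from that choice. *Il1b*, which is not among those genes, was at 4.03 and 3.51.

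The lineage reporter was not found in the neutrophils. *Yfp* had 0 UMIs in 391889 UMIs of the 102, which allows a level of up to 7.66 CPM and a share of cells with a UMI of up to 2.94%. In the same library 197 of 786 macrophages had a *Yfp* UMI (25.1%, 22.1 to 28.2), as did 1 of 124 monocytes, 14 of 364 T cells (3.85%) and 7 of 147 B cells (4.76%). At 500 UMIs the share was 5.85% (4.32 to 7.73) in macrophages and 0% in neutrophils. The neutrophils were the deeper set, with a median of 3314.5 UMIs against 1350 in macrophages. Most macrophages also lacked a *Yfp* UMI, so a single cell without one says little of its own origin. T and B cells are given beside them since they descend from hematopoietic stem cells.

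Of the receptors for angiotensin peptides, *Agtr1a*, *Agtr1b*, *Agtr2* and *Mas1* had 0 UMIs in the neutrophils, as in monocytes and macrophages, which allows a level of up to 7.66 CPM in the 102. *Ace*, the angiotensin converting enzyme gene, had 2 UMIs in the neutrophils, both in high-share ones, and 37 in monocytes. *Lnpep*, the angiotensin IV-binding aminopeptidase gene, was 2.13-fold higher (1.60 to 2.82) in the 70 than in monocytes.

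At steady state the same rule found 3 of 306 kept barcodes (0.980%, 0.203 to 2.84). The median depth of kept barcodes was 9105 UMIs there and 1092 in the AngII library, and the shares cannot be compared apart from it. The 3 neutrophils had 4362, 4597 and 4150 UMIs, close to the median of the low-share neutrophils on AngII, and calprotectin shares of 30.4%, 14.3% and 3.30%. *Siglecf* had 0 UMIs in each, where 33 of 70 had a UMI on AngII. *Cxcl2* had 0, 2 and 0 UMIs, against a median of 28 on AngII, a ratio of levels of 71.8 (19.9 to 593). *Ccl3* had 0, 0 and 1 UMIs and *Tnf* and *Icam1* had 0 in each. A count of 0 in the 3 allows a level of up to 229 CPM. On AngII *Siglecf*, *Tnf* and *Icam1* stood at 311, 420 and 297 CPM in the 70, not far above that limit. *Il1b* was present in all 3, at 42, 133 and 41 UMIs, and its level on AngII was 0.852 times (0.743 to 0.982) that at steady state. *Ptgs2* had 6, 21 and 24 UMIs, with a level on AngII of 0.524 times (0.393 to 0.712). These ratios set 70 cells of 1 library against 3 cells of another, and the library and the treatment cannot be told apart.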

How the data were processed

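Live CD45+ cells of the aortic adventitia were captured with 10x Chromium 3′ v3.1 chemistry. The authors demultiplexed the reads with Je (the labels also name bcl2fastq), mapped them with Cell Ranger 3.1.0 to GRCm38.p6 with GENCODE M24 plus eYFP, and deposited raw UMI counts per gene and barcode for barcodes called as cells. The study's filter was applied to barcodes (300 to 6500 genes, mitochondrial UMIs no more than 5%). No doublet caller was run, and the share of 9 macrophage, monocyte and MHC class II genes was used instead. Comparison cells came from gene rules in the same library, and 31 barcodes that met more than 1 rule were left out.

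UMIs were summed per cell set (Python 3.11.15, NumPy 2.4.6, SciPy 1.17.1). Ratios are ratios of summed CPM with exact conditional 95% intervals, shares have Clopper-Pearson intervals, and a count of 0 was taken as a limit of 3 counts. List counts used genes with at least 20 UMIs in both sets together, a pseudocount of 0.5 UMIs and a 2-fold limit. The genes of the rule were left out of lists. Genes named are those of 20 lists, plus the 20 highest by CPM, the 15 highest and 10 lowest ratios to monocytes and the 10 highest and lowest within-neutrophil ratios among genes with at least 50 UMIs. The members and lists were chosen with earlier results of these data known. *BC100530* was not matched to a gene of the files. Coordinates of genes were read from GENCODE M21 (GRCm38). The counting step was checked on simulated data. With 1 library per condition and pooled animals, no test was made. The flow cytometry and histology of the study were not analysed here.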

Additional observations from a re-analysis of the deposited data

How the results depend on the processing

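Of 377 values recomputed under other settings, 321 stayed within the limits set for a move and 56 moved. Of the list medians 19 had the other sign, all with a main value under 1 in size, among them secondary granule genes (0.51) and other S100 genes (-0.66) after thinning and interferon-response genes (0.27) with no C1q UMI or at least 1000 UMIs (-0.18). The log2 ratio of *Ccr2* along the score could not be given without the 32 high-share neutrophils. That exclusion, the removal of dendritic-type barcodes from the monocytes and the split by *Siglecf* were chosen after seeing the data. No paired analysis was possible because each condition had 1 library.

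The share of neutrophils was 1.88% with a calprotectin share of at least 2%, 3.12% with at least 1 of the 6 rule genes, 1.02% with no C1q UMI, 3.63% over barcodes with at least 1000 UMIs, 0.524% with under 2 UMIs of other cell types and 1.67% without the 32. After thinning to 500 UMIs, 155 genes were at least 2-fold higher and 200 as much lower than in monocytes. With at least 50 UMIs per gene it was 469 and 629, and with at least 1 it was 3180 and 2316. With under 2 UMIs of other cell types 1943 were lower. Against macrophages the counts were 527 and 806 after thinning, and 6096 were higher with at least 1 UMI. The number of genes tested changed with the setting, so these counts cannot be set beside the main shares of 12.7% and 17%. With at least 1 UMI, the pseudocount of 0.5 UMIs lets a single UMI pass as higher in the smaller total (391889 UMIs, against 1033254 in monocytes). Between low and high score 86 of 1469 genes were lower without the 32. Between neutrophils with and without a *Siglecf* UMI 37 of 255 genes were higher and 29 lower after thinning.

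Median log2 ratios of lists moved with macrophages in place of monocytes (secondary granule 5.39, late granule 5.30, adhesion 1.52, cytokines 2.50, eicosanoid 0.68, circulating 6.48). They moved with under 2 UMIs of other cell types (primary granule -0.16, secondary granule 2.39, other S100 -2.25, eicosanoid 0.61, circulating 4.58). After thinning they were -2.12 for the 1 secondary granule gene left, 0.13 for other S100, 0.91 for cytokine receptors, 1.5 for interferon response and for renin-angiotensin, 1.95 for survival and 2.51 for circulating genes. The interferon median was -0.56 with no C1q UMI. The eicosanoid median was 3.74 over barcodes with at least 1000 UMIs, 3.82 without dendritic-type barcodes and 3.98 without the 32, where other S100 was -1.38. The cause of these moves was not tested. Neutrophils of 500 to 1000 UMIs set the limit on genes found in few cells.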
